A study of Mus musculus with 14 samples.

Results

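The core dentate granule neurons of the hippocampus were 6000 of the 13602 annotated cells in this mouse data set, chosen as the cells that the authors' cell table placed in both the class DG_ExN and Leiden cluster 0. They made up 6000 of 8561 DG_ExN cells, and Leiden 0 also held 20 cells of CA1_ExN and 13 of CA3_ExN, which were not members. RNA molecules of 255 genes, from Abi3 to Kcnj8 in alphabetical order, had been counted by MERFISH, which images and decodes single transcripts in tissue sections. The sections came from 14 samples in 4 groups, which were Ir-Rz (radiation and RZ, n = 2), Ir-Veh (radiation and vehicle, n = 4), Ctl-Rz (RZ without radiation, n = 3) and Ctl-Veh (vehicle without radiation, n = 5). RZ is the labels' own abbreviation and is kept as written. No genetic change, strain, age, radiation dose or treatment time is stated in the labels used here. The number in a sample's title was its assay number in the authors' cell table for 14 of 14 samples. That table had 7 assays, each with its own coarse batch entry and 2 samples, never both of 1 group, and an assay is called an imaging run here. Whether every sample was its own animal is not stated in the labels, and p-values therefore describe sample-to-sample spread, part of which can be technical.

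Granule neurons form the dense cell layer of the dentate gyrus, receive the main cortical input to the hippocampus and send mossy fibres to CA3. They fire sparsely, and few of them express activity genes such as Arc at any time. They also make BDNF, a neurotrophin that signals through TrkB and is induced by activity, and their precursors are among the brain cells most sensitive to radiation. The comparisons ask how irradiation under vehicle, RZ in irradiated samples and RZ alone relate to transcript levels in these cells.

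The 14 samples held 133 to 721 core dentate cells and 43165 to 210249 counts in them, so single genes were least precise in Ir-Rz 9, which had the lowest of both. The 255 genes made up 52.4% to 54.1% of the deposited counts of these cells. No cell identifier occurred in more than 1 sample (0 shared).

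All 8 given markers were higher in core dentate cells than in the 7602 other annotated cells. Every annotated cell was of the class CA1_ExN, CA3_ExN or DG_ExN, so the other cells held no inhibitory or glial class. They included 2383 DG_ExN cells of Leiden 3, which lessens the contrasts. The genes used for the authors' clusters are not given and can include these, so all values against other cells are descriptions with no test. Grm2, a presynaptic metabotropic glutamate receptor, averaged 3.88 ± 1.26 counts per core dentate cell (SD, n = 14 samples), against 0.555 in other cells. Camk2g, a subunit of calcium/calmodulin kinase II, averaged 3.62 ± 1.13 counts, against 1.05. Gad1, which encodes a GABA-synthesising enzyme, averaged 1.45 ± 0.484 counts, against 0.314. Grm2 was lowest in the CA clusters, where it averaged 0.116 counts per cell in CA1 (CA1_ExN, Leiden 1) and 0.215 in CA3 (CA3_ExN, Leiden 8).

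The other given markers were less abundant. Car12, a carbonic anhydrase, averaged 1.21 counts per core dentate cell against 0.408 in other cells, and Csf1, a ligand of the microglial receptor Csf1r, 0.884 against 0.214. Adarb2, an RNA-binding protein of the RNA-editing enzyme family, averaged 0.400 against 0.0825, and Drd1, a dopamine receptor, 0.324 against 0.0896. Col6a1, a collagen chain, averaged 0.293 against 0.105 and was the least even of the 8, with a range of 0.0422 to 0.541 counts per core dentate cell over the samples. On log2 CPM, Grm2 was higher by 2.88 ± 0.46 (mean ± SD over samples) and Col6a1 by 1.44 ± 1.0. Grm2, Gad1, Adarb2, Csf1, Camk2g, Drd1 and Car12 were higher in core dentate cells in 14 of 14 samples, and Col6a1 in 12.

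**Figure D1:**
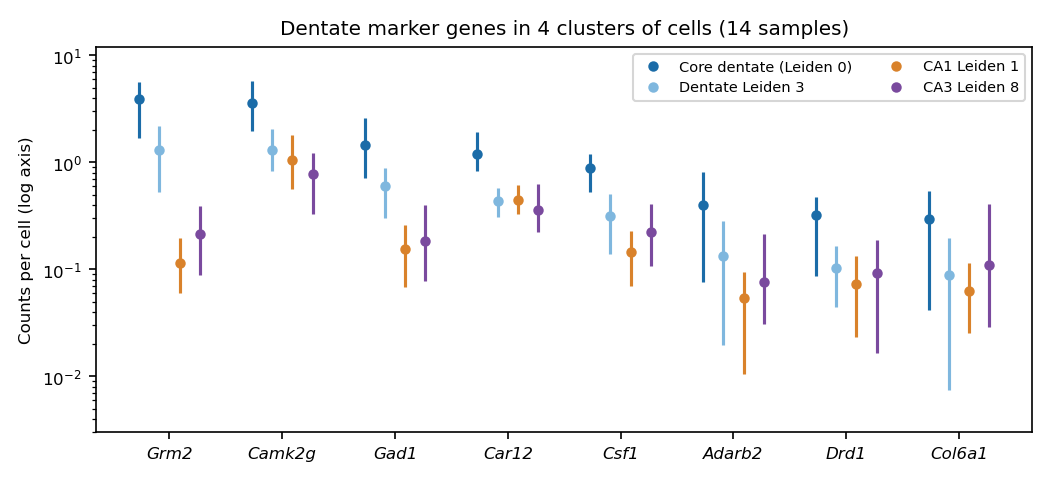
Counts per cell (log axis) of the 8 given markers in core dentate cells, dentate Leiden 3, CA1 Leiden 1 and CA3 Leiden 8 cells. Points are means and lines the range over 14 samples, and Grm2 ranges from 1.71 to 5.67 counts per core dentate cell.

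Of the textbook granule markers, Calb1, a calcium buffer of mature granule cells, was measured and averaged only 0.150 counts per core dentate cell, against 0.0635 in other cells. Prox1 and other granule markers later in the alphabet were not analysed here. Gad1 and Adarb2 are also used as inhibitory neuron markers. The second GABA-synthesising enzyme, Gad2, averaged 0.132 counts per core dentate cell and 0.143 per other cell. With no inhibitory class annotated, these levels were not compared with those of inhibitory neurons. Of the 10 measured inhibitory markers, 5 were higher in core dentate cells, with a median log2 difference of 0.05, and the median over all 255 genes was -0.03. The 3 CA1 markers (Fibcd1, Gm2115 and Adgrl2) summed to 0.522 counts per core dentate cell (0.359 to 0.756 over samples), against 17.3 per CA1 cell. The low Calb1 apart, the markers went with the label. Since the clusters can have been made from these genes, this does not test the label.

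The genes lowest in core dentate cells relative to other cells were all higher in CA1 or CA3 cells. Gm2115 differed by log2 -5.38 ± 0.68 (mean ± SD, n = 14), Fezf2, a transcription factor of projection neurons, by -4.62, and Dkk3, a secreted protein, by -4.32. Adgrl2, an adhesion receptor, differed by -4.16 and Arc by -3.98. Htr1f, a serotonin receptor, Col11a1, a collagen chain, Bcan, a matrix proteoglycan, and Fibcd1 were also among the 10 lowest, at -3.04, -3.02, -2.97 and -2.92. At the other end, Cdh9, a cadherin, and Dclk3, a kinase, joined the 8 given markers among the 10 highest, with 1.44 and 1.27. Cdh9 separated core dentate cells from CA1 (0.893 against 0.0596 counts per cell) but not from CA3, where it averaged 1.06.

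The most counted transcript of core dentate cells was App, the amyloid precursor, with 22.2 counts per cell over the 6000 cells. Gria1 and Gria2, AMPA receptor subunits, followed with 19.7 and 15.2 counts, and Grin1, the obligatory NMDA receptor subunit, with 14.97. Dnm1, which pinches off synaptic vesicles, Cpne6, Camk2a, Hpca, Dlg4 (PSD-95) and Fam131a had 13.3, 12.6, 11.3, 10.7, 10.5 and 9.99. The number of probes per gene is not given in the sources used here, so counts rank what was detected and not the RNA of different genes. Of the 255 genes, 85 reached 0.2 counts per core dentate cell. Bdnf averaged 1.17 ± 0.394 counts per core dentate cell (SD, n = 14), against 0.660 in other cells, and was higher on log2 CPM by 0.91 ± 0.19.

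The smaller dentate cells of Leiden 3 had nearly the same relative profile at lower content. The median core dentate cell held 247 counts in a volume of 783.2 (unit not stated), and the median dentate Leiden 3 cell (2383 cells) 94 counts in 266.7. Counts per 100 volume units were 33.4 in core dentate and 35.6 in dentate Leiden 3 cells, against 52.3 in CA1 Leiden 1. Across the 255 genes, log2 CPM of core dentate cells correlated with dentate Leiden 3 at r = 0.994, with CA3 Leiden 8 at 0.883 and with CA1 Leiden 1 at 0.855, as descriptions over genes of the same libraries. More than 2-fold differences were seen for 7 genes against dentate Leiden 3, 67 against CA1 and 63 against CA3. All 7 had under 0.1 counts per core dentate cell, and Calb2, a marker of immature granule cells, was the 1 that was lower in core dentate cells (0.0402 against 0.0543 counts per cell).

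The 2 kinds of dentate cells also lay mixed in the tissue. Among the 10 nearest annotated neighbours of a core dentate cell, 70.2% ± 7.80 were core dentate and 27.97% ± 7.61 dentate Leiden 3 (SD, n = 14 samples). Around a dentate Leiden 3 cell the shares were 68.6% and 29.5%. CA1 or CA3 cells made up 0.164% of the neighbours of core dentate cells. The median distance to the nearest core dentate cell was 10.7 ± 1.46 in the position units of the cell table.

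At an equal depth of 100 counts, Arc, Col6a1 and Apoe had the highest ratios of variance to mean among core dentate cells. Each cell with 100 or more counts was thinned to 100 (51 core dentate cells were left out), and the variance over the mean was divided by its value for random draws, which makes 1 the level of sampling noise. Over the 85 genes at 0.2 or more counts per cell the median of this ratio was 1.05, and 14 genes were above 1.2. Since the excess over 1 scales with a gene's mean, a ratio near 1 at these low counts does not show that cells were alike, and ratios of different genes are not on 1 scale of spread. Arc had the highest, 2.39 ± 1.75 (SD, n = 14), followed by Col6a1 at 2.24 ± 0.494 and Apoe, a lipid carrier mainly made by glia, at 2.003 ± 0.609. Hpca, a calcium sensor, Gja1, an astrocyte gap junction gene, App and Egr1, an activity-induced transcription factor, came next with 1.69, 1.53, 1.41 and 1.41. The ratio of Arc ran from 0.970 to 7.58 between samples.

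Arc encodes a cytoskeletal protein of active synapses and marks recently active neurons. It was found in 648 of 6000 core dentate cells (10.8%), against 90.8% of CA1 Leiden 1 and 81.0% of CA3 Leiden 8 cells. With every cell at 100 counts the shares were 5.07% in core dentate, 66.0% in CA1 and 44.7% in CA3 cells. Of the 648 cells, 46 (0.767% of all core dentate cells) from 13 samples held 5 or more, up to 48.

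Other activity genes were higher in the core dentate cells that held Arc. Fos, an AP-1 transcription factor, averaged 3.70 counts in the 46 cells with 5 or more Arc counts and 0.0800 in the 5352 cells with none. Atf3, a stress- and activity-induced factor, averaged 1.28 against 0.0581, Egr1 3.91 against 0.394, and Fosl2, another AP-1 factor, 4.39 against 0.613. Bdnf averaged 3.48 in the Arc-rich cells against 1.02 in those with none. Median counts per cell were 304.5 and 242, and App, which was not chosen for activity, averaged 25.5 against 21.9. Of genes high in CA1 cells, Dkk3 (0.304 against 0.348) and Fibcd1 (0.130 against 0.380) were lower in the Arc-rich cells. Gm2115 was higher in them (0.0870 against 0.0581), and Grm2 averaged 3.98 against 3.81.

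The same order was seen sample by sample per 1000 counts. Fos, Fosb, Fosl2 and Atf3 were higher in the cells with 1 or more Arc counts than in those with none in 14 of 14 samples, Egr1 in 13, Egr4 in 12 and Egr2 in 11. Fos averaged 1.42 ± 0.755 in cells with Arc and 0.300 ± 0.134 in cells without (SD, n = 14). Bdnf averaged 5.60 ± 1.37 against 3.99 ± 0.927 and was also higher in 14 of 14. Homer1, a postsynaptic scaffold gene of the same list, was higher in 6 of 14. Of 6 other genes outside the activity list, Gad1 was higher in 13, App in 11, Gm2115 in 9, Dkk3 in 6, Grm2 in 5 and Fibcd1 in 3. Gad1 averaged 5.65 ± 1.203 in cells with Arc against 5.12 ± 0.985 in cells without, and App 82.8 ± 15.8 against 82.5 ± 16.3. Cells with Arc were chosen by Arc alone, but all genes of a cell share its volume and outline, so these are descriptions without a test.

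**Figure D2:**
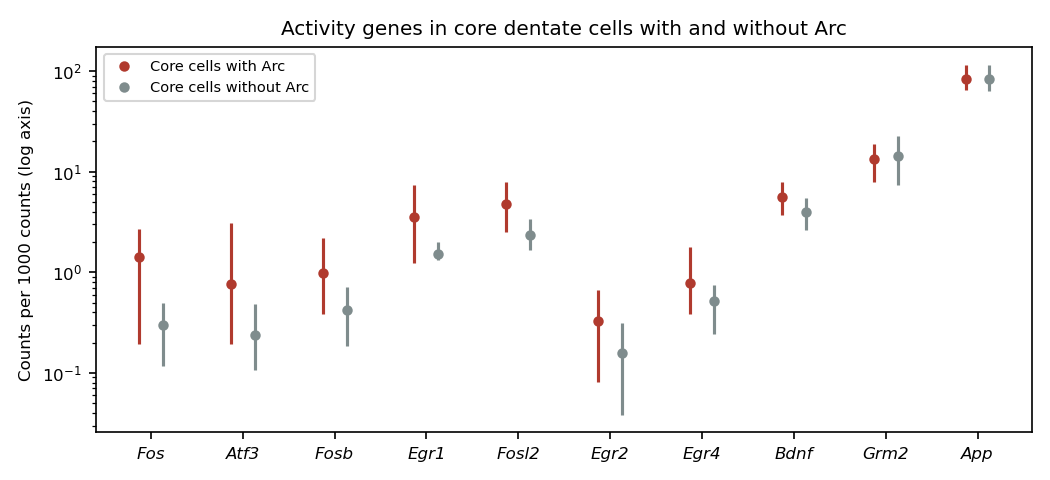
Counts per 1000 counts (log axis) in core dentate cells with 1 or more Arc counts (left, red) and with none (right, grey). Points are means and lines the range over 14 samples, and Fos averages 1.42 in cells with Arc against 0.300 in cells without.

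Promoter sequences are shown for Fos, Fosb, Fosl2 and Atf3, the 4 genes of the activity list that were higher beside Arc in 14 of 14 samples. The windows run from 250 bases before to 50 after the start in RefSeq (GRCm38.p6), and capitals mark TGACG, the half-site of the cAMP response element that CREB binds, on either strand. Fos is at chr12:85473640-85473939 (+ strand), Fosb at chr7:19309996-19310295 (- strand), Fosl2 at chr5:32136222-32136521 (+ strand) and Atf3 at chr1:191183284-191183583 (- strand).
Fos: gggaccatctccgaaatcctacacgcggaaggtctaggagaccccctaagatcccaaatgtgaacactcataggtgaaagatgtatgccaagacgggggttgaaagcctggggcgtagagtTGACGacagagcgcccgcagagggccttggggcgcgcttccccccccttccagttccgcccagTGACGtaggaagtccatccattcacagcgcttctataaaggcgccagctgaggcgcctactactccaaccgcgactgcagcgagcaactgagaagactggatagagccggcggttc
Fosb: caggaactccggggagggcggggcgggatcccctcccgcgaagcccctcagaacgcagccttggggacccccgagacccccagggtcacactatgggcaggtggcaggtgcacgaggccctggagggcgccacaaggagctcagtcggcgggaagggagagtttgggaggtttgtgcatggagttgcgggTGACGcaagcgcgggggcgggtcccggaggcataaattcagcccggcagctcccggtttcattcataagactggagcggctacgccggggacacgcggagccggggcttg
Fosl2: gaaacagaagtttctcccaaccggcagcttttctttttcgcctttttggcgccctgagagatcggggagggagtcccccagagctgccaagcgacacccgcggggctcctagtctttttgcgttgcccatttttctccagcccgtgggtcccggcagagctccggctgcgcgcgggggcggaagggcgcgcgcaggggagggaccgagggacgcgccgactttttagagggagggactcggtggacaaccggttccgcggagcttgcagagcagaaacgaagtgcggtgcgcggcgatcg
Atf3: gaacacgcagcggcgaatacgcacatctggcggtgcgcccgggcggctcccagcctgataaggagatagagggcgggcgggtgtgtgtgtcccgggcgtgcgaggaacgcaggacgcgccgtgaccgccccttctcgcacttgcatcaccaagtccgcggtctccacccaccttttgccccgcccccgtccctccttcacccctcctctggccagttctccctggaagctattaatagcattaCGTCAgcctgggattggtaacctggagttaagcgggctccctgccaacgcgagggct
The half-site occurred 2 times in the Fos window and 1 time each in those of Fosb and Atf3, and not in that of Fosl2, against 20.8% of 32851 promoters with at least 1. The full element TGACGTCA, found in 1.79% of promoters, was in none of the 4 windows, and neither was the AP-1 motif TGANTCA (7.81%). Of 7 Bdnf starts listed, 1 window held the half-site and 1 the AP-1 motif. A match is a description of letters and not a site of binding.

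Irradiation under vehicle changed no gene of core dentate cells past the threshold. Of 249 genes tested in Ir-Veh against Ctl-Veh, 0 were called (0%) by edgeR's quasi-likelihood test at an adjusted p of 0.05, where 8 reached an unadjusted p of 0.05, and DESeq2 called 0, where 5 did. The smallest edgeR adjusted p was 0.984, and 0.160 with the imaging run as replicate block, which also called 0. Only imaging runs 2 and 12 held both an Ir-Veh and a Ctl-Veh sample. For the other samples of these groups, run and radiation cannot be told apart in the fit without the block. Levels are given as CPM, the summed counts of a sample's core dentate cells brought to a common total with edgeR's TMM factors. Sums over a marker list are CPM without these factors. In bulk sums, fewer transcripts per cell and fewer cells with the transcript cannot be told apart.

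Bdnf was 3499, 3525, 3904 and 3239 CPM in Ir-Veh 1, 2, 9 and 12, against 3632, 4930, 4424, 4575 and 4785 CPM in Ctl-Veh 2, 3, 8, 11 and 12. With TMM scaling only Ctl-Veh 2 lay within the Ir-Veh range. Without it Ctl-Veh 8, 11 and 12 did too, as the TMM factor of Ir-Veh 9 was 1.22. The log2 fold change was -0.33 ± 0.23 (SE; edgeR adjusted p = 0.984), with a 95% interval of -0.81 to 0.14. Arc differed by -0.37 ± 0.31 and Gfap, an intermediate filament of astrocytes, by 0.27 ± 0.29 (both edgeR adjusted p = 0.984). Gfap was the 1 of the 5 measured astrocyte markers with a positive value, while Aldh1l1, Aqp4, Agt and Gja1 had -0.62, -0.38, -0.33 and -0.19, and the median was -0.33. Without TMM factors the 5 astrocyte markers summed to 1934 to 3413 CPM in Ir-Veh and 2346 to 3461 CPM in Ctl-Veh, so these ranges overlapped.

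In 4 of the 249 genes (1.61%) the groups did not overlap, 3 higher in Ir-Veh (1.2%) and 1 lower (0.402%). With 4 against 5 samples, labels exchanged at random give each direction a probability of 0.00794, near these shares. Car4, a membrane carbonic anhydrase, was 1978, 1823, 1983 and 1972 CPM in the Ir-Veh samples, against 890, 1287, 1031, 1429 and 1521 CPM in the Ctl-Veh samples. All Ir-Veh samples lay above all Ctl-Veh samples, with a log2 fold change of 0.65 ± 0.32 (unadjusted p = 0.0554, edgeR adjusted p = 0.984). Gria4, an AMPA receptor subunit, was the other non-overlapping gene above 0.2 counts per cell, with 1349 to 1495 CPM in Ir-Veh and 917 to 1346 CPM in Ctl-Veh. Chodl and Calb2 were the rest, at 0.0197 and 0.0373 counts per core dentate cell.

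Of the 10 genes with the smallest p, 8 were under 0.2 counts per core dentate cell, and none was called. Ccr6, a chemokine receptor, had a log2 fold change of 1.03 ± 0.36, Chodl of 1.03 ± 0.38, Calb2 of -0.93 ± 0.37, Fst, an activin antagonist, of -0.86 ± 0.36 and Htr1f of 0.75 ± 0.34. Cdh7, Cx3cr1 and Degs2 followed with 1.11, 0.70 and -0.62. Drd1 was 989, 787, 1090 and 457 CPM in the Ir-Veh samples, against 1073, 1132, 1248, 1447 and 1316 CPM in the Ctl-Veh samples. Ir-Veh 9 alone lay within the Ctl-Veh range, and the log2 fold change was -0.57 ± 0.27 (edgeR adjusted p = 0.984). Beside Cx3cr1, a microglial receptor, the 7 microglia markers summed to 831 to 1321 CPM in Ir-Veh and 776 to 1347 CPM in Ctl-Veh, without TMM factors. Their part in the Cx3cr1 value was not tested.

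**Figure D3:**
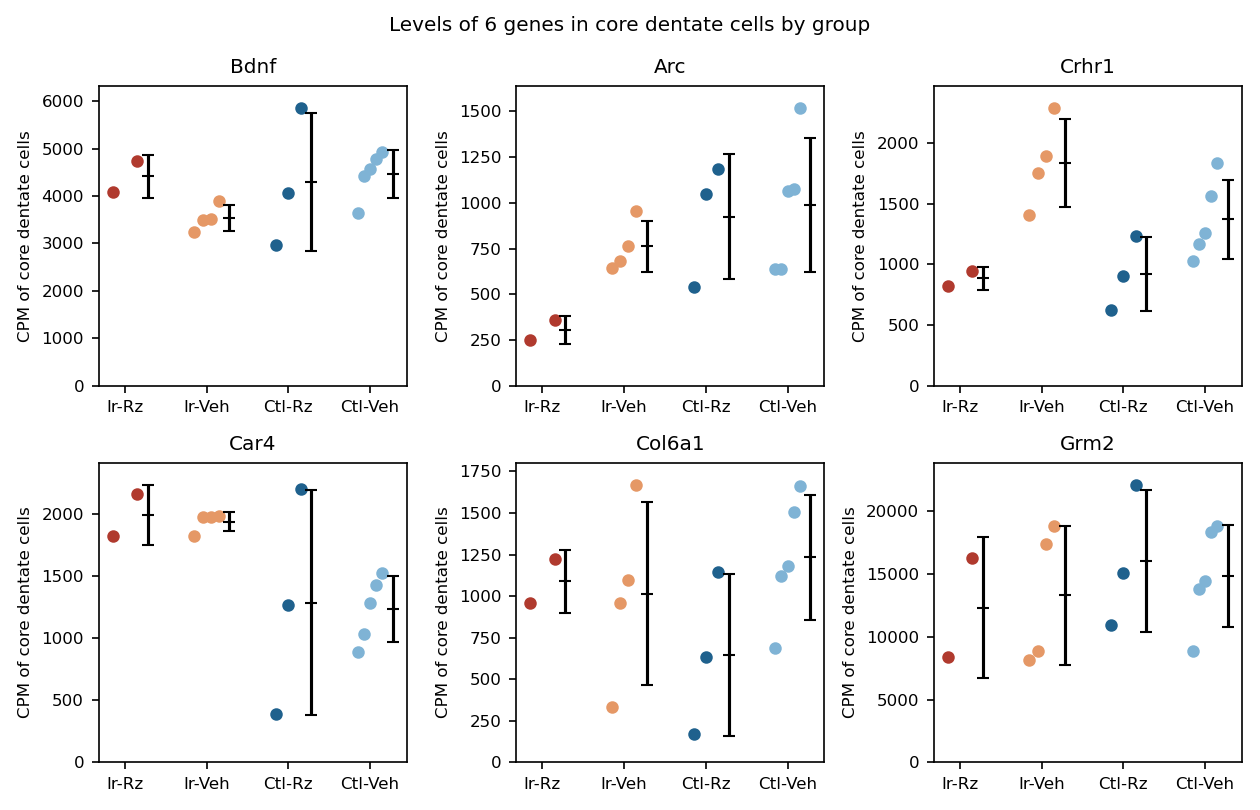
CPM of Bdnf, Arc, Crhr1, Car4, Col6a1 and Grm2 in core dentate cells, with 1 point per sample and the mean ± SD beside each group (Ir-Rz n = 2, Ir-Veh n = 4, Ctl-Rz n = 3, Ctl-Veh n = 5). Arc and Crhr1 are lower in both Ir-Rz samples than in all Ir-Veh samples, and Car4 is higher in all Ir-Veh than in all Ctl-Veh samples. Groups do not overlap for 10.4% of genes in Ir-Rz against Ir-Veh and for 1.61% in Ir-Veh against Ctl-Veh.

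No gene passed the test between Ir-Rz and Ir-Veh. With TMM scaling, Arc and Crhr1 were lower and Bdnf higher in both Ir-Rz samples than in all Ir-Veh samples. In Ir-Rz against Ir-Veh, edgeR called 0 of 249 genes (0%), with 6 at an unadjusted p under 0.05 and a smallest adjusted p of 0.755, and DESeq2 called 0 with 3. Groups did not overlap for 26 genes (10.4%), of which 10 were higher (4.02%) and 16 lower (6.43%) in Ir-Rz. With 2 Ir-Rz samples these counts rest on few values. Labels exchanged at random give complete separation in 1 given direction a probability of 0.0667 with 2 against 4 samples. The shares of 4.02% and 6.43% were not above it, so the separation of single genes is a description only. Both Ir-Rz samples shared their run with an Ir-Veh sample.

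Arc was 362 and 254 CPM in Ir-Rz 1 and 9, against 957, 764, 643 and 685 CPM in the Ir-Veh samples. Both Ir-Rz samples lay below all 12 other samples. The log2 fold change was -1.27 ± 0.44 (unadjusted p = 0.00827, edgeR adjusted p = 0.755), and it lay between -1.57 and -0.96 when each sample was left out. Within runs, the share of core dentate cells holding Arc at 100 counts was 2.78% in Ir-Rz 1 against 6.33% in Ir-Veh 1, and 2.50% in Ir-Rz 9 against 6.95% in Ir-Veh 9. Over all samples the shares averaged 2.64% ± 0.196 and 5.48% ± 1.37 without overlap (two-sided exact permutation p = 0.133, adjusted p = 0.933 over 15 tests, smallest possible p 0.0667).

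Bdnf was 4091 and 4739 CPM in Ir-Rz 1 and 9, against 3499, 3525, 3904 and 3239 CPM in the Ir-Veh samples. With TMM scaling the Ir-Rz values exceeded every Ir-Veh value and lay within the Ctl-Veh range. Without it Ir-Veh 9 lay above Ir-Rz 1, and Ir-Rz 9 lay above all Ctl-Veh samples. The TMM factors were 1.22 in Ir-Veh 9, 1.01 in Ir-Rz 1 and 1.19 in Ir-Rz 9. The log2 fold change was 0.32 ± 0.29 (edgeR adjusted p = 0.984), with a 95% interval of -0.29 to 0.92. The irradiation and RZ comparisons share the Ir-Veh samples, so opposite signs in them are not independent. Gfap differed by -0.51 ± 0.38 (edgeR adjusted p = 0.984), and the other 4 astrocyte markers had positive values, from 0.18 for Aqp4 to 0.35 for Agt, with a median over the 5 of 0.25. Without TMM factors the 5 markers summed to 2407 to 3591 CPM in Ir-Rz and 1934 to 3413 CPM in Ir-Veh.

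Crhr1, the receptor of the stress peptide CRH, was 949 and 819 CPM in Ir-Rz, against 1755, 1891, 1402 and 2284 CPM in Ir-Veh. Its log2 fold change was -1.04 ± 0.37 (edgeR adjusted p = 0.755), and of the 11 monoamine and neuropeptide receptors tested 10 had negative values and 0 were called, with a median of -0.42 against -0.11 over all 249 genes. Ctsc, a lysosomal protease at 0.0300 counts per core dentate cell, had the smallest p, with 211 and 117 CPM in Ir-Rz against 85.1, 83.2, 26.8 and 62.3 CPM in Ir-Veh. The groups did not overlap for Ctsc, and without TMM factors the 7 microglia markers summed to 809 to 1228 CPM in Ir-Rz and 831 to 1321 CPM in Ir-Veh. The log2 fold change of Ctsc was 1.44 ± 0.49 (edgeR adjusted p = 0.755). The others of the 10 with the smallest p were Htr1f at -1.01, Cxcr4 at -1.41, Gng8 at -1.07, Igf1 at -1.08, Ccr6 at -1.02, Bcl6 at -0.72 and Calb2 at 0.84. Of these only Bcl6, a transcriptional repressor, exceeded 0.2 counts per core dentate cell.

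RZ without irradiation likewise changed no gene past the threshold. In Ctl-Rz against Ctl-Veh edgeR called 0 of 249 genes (0%), with 5 at an unadjusted p under 0.05 and a smallest adjusted p of 0.997, and DESeq2 called 0 with 3. Groups did not overlap for 3 genes (1.2%), all lower in Ctl-Rz. These were Htr1f, the amino acid enzyme gene Cbs and Htr5a, a serotonin receptor, with log2 fold changes of -0.93, -0.37 and -0.21. Bdnf was 2968, 5849 and 4071 CPM in Ctl-Rz 3, 8 and 11. With TMM scaling the lowest and the highest of all 14 samples were among them. Its log2 fold change was -0.06 ± 0.25 with TMM scaling and 0.06 with library size alone. Crhr1 was 908, 625.4 and 1236 CPM in Ctl-Rz, against 1558, 1256, 1031, 1166 and 1833 CPM in Ctl-Veh. Ctl-Rz 8 was the lowest of all 14 samples for Crhr1, the groups overlapped, and the log2 fold change was -0.55 ± 0.30 (edgeR adjusted p = 0.997).

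Col6a1 was 1144, 169 and 632 CPM in Ctl-Rz, against 1123, 1179, 1509, 1664 and 691 CPM in Ctl-Veh. Ctl-Rz 8 was the lowest of all 14 samples, and the groups overlapped. The log2 fold change was -0.89 ± 0.46 (edgeR adjusted p = 0.997), and it lay between -1.54 and -0.38 when each sample was left out. Crtac1, a secreted matrix protein and a well-measured gene at 2.13 counts per core dentate cell, was 4854, 4446 and 6021 CPM in Ctl-Rz, against 10068, 8351, 6047, 5344 and 11502 CPM in Ctl-Veh. The Ctl-Rz samples lay at the low end, with 1 Ctl-Veh sample between them, and a log2 fold change of -0.69 ± 0.33 (edgeR adjusted p = 0.997). The others of the 10 with the smallest p, all under 0.2 counts per core dentate cell, were Adgrg7 (-1.34), Ccdc153 (1.07), Grin2c (0.68), Htr1f (-0.93), Abi3 (-0.80), Creb1 (0.71), Htr3a (-1.13) and Fign (-0.83).

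No difference between the RZ effects with and without irradiation was called either. The interaction test passed 0 of 249 genes (0%) in edgeR, with 2 at an unadjusted p under 0.05 and a smallest adjusted p of 0.999. For Arc the difference of log2 fold changes was -1.17 ± 0.55, for Bdnf 0.38 ± 0.38 and for Crhr1 -0.49 ± 0.46 (all edgeR adjusted p = 0.999).

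No gene list held a called gene in the 3 group comparisons. Of the 8 given markers, 3 were higher and 5 lower in Ir-Veh than in Ctl-Veh, and their median was log2 -0.09, against 0.06 over all 249 genes, and 0 were called. In Ir-Rz against Ir-Veh 3 were higher and 5 lower (median -0.10 against -0.11), and in Ctl-Rz against Ctl-Veh 4 and 4 (-0.07 against -0.02). The 9 immediate early genes had medians of -0.21, -0.19 and -0.10 in the 3 comparisons, with 6, 5 and 7 lower and 0 called. The 14 glutamate receptors had 11 higher and 3 lower in Ir-Veh than in Ctl-Veh (median 0.13), and 3 higher and 11 lower in Ir-Rz than in Ir-Veh (-0.17), comparisons that share the Ir-Veh samples. The 6 measured genes of the BDNF and CREB list had medians of 0.09, 0.05 and -0.0028. The 10 inflammatory and complement genes, all under 0.2 counts per core dentate cell, had medians of 0.16, -0.15 and 0.06.

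Group effects in core dentate cells were also set against those in the other annotated cells of the same samples, which included the dentate Leiden 3 cells. The test of this difference was limma on the per-sample difference of log2 CPM. It called 0 of 249 genes in each comparison (0% each). An unadjusted p of 0.05 was reached by 3, 12 and 9 genes for Ir-Veh, Ir-Rz and Ctl-Rz. With only CA1_ExN and CA3_ExN cells as the other cells, or with the run as replicate block, limma also called 0 in each. With that block the smallest limma adjusted p for Ir-Rz against Ir-Veh was 0.0734. For Ir-Rz against Ir-Veh, the Arc effect in core dentate cells minus that in other cells was -0.87 ± 0.28 on the log2 scale (limma adjusted p = 0.762), and Bdnf differed by -0.31 ± 0.19 (limma adjusted p = 0.980). For Ctl-Rz against Ctl-Veh the smallest p was that of Htr1f, with a difference of -1.06 ± 0.26 (limma adjusted p = 0.148).

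Many genes of core dentate cells differed between imaging runs. Run given the group was called by edgeR for 99 of 249 genes (39.8%), and any group given the run for 0 (0%) with 11 at an unadjusted p under 0.05. Among the 85 genes at 0.2 or more counts per cell, 56 were called for run (65.9%). Gria2 had the lowest mean in run 1, at 40101 CPM, and the highest in run 12, at 99308 CPM (edgeR adjusted p = 2.93e-05). Fam131a ran from 24244 CPM in run 12 to 49351 CPM in run 2, Hpca from 28791 in run 9 to 59344 in run 8, and Grm2 from 8274 in run 9 to 20232 in run 8. Of the given markers, Grm2, Adarb2, Csf1 and Camk2g were called for run, and Gad1, Drd1, Car12 and Col6a1 were not. Bdnf (edgeR adjusted p = 0.632) and Arc (0.407) were not called for run either, and 10 of 14 samples correlated best with the sample of their own run.

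**Figure D4:**
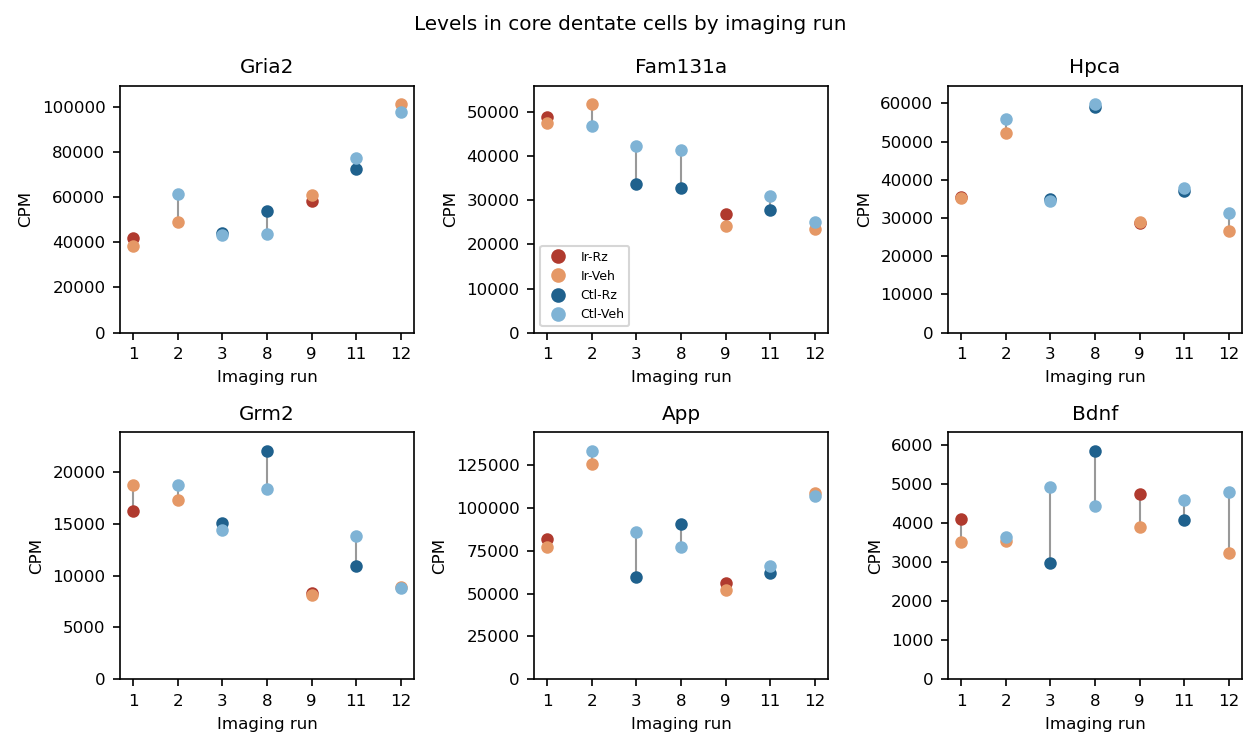
CPM of Gria2, Fam131a, Hpca, Grm2, App and Bdnf in core dentate cells by imaging run, with 1 point per sample and a line joining the 2 samples of a run. Run means of Gria2 lie between 40101 CPM in run 1 and 99308 CPM in run 12.

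The number and size of core dentate cells did not separate the groups. They made up 40.8%, 52.6%, 34.3% and 27.7% of the annotated cells in Ir-Veh 1, 2, 9 and 12, against 45.3%, 49.2%, 46.7%, 40.1% and 52.6% in Ctl-Veh 2, 3, 8, 11 and 12. Both the lowest share and one of the highest were Ir-Veh samples, and the means were 38.9% ± 10.6 and 46.8% ± 4.65 (two-sided exact permutation p = 0.190, adjusted p = 0.933). Within the runs that held both groups the difference was 7.31 points in run 2 and -24.97 points in run 12. Ir-Rz samples had 48.9% and 32.2%, and Ctl-Rz samples 40.1%, 37.3% and 48.8%, with exact permutation p = 0.867 against Ir-Veh and 0.250 against Ctl-Veh.

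Of the DG_ExN cells, 67.8% ± 9.05 were in Leiden 0 in Ir-Veh and 70.7% ± 7.21 in Ctl-Veh. Median counts per core dentate cell averaged 296.5 ± 9.19 in Ir-Rz, 261 ± 53.7 in Ir-Veh, 279 ± 52.2 in Ctl-Rz and 250.7 ± 55.1 in Ctl-Veh. Median volumes averaged 763 ± 75.2, 773 ± 34.0, 771 ± 94.9 and 783 ± 23.1 in the same groups. In the group comparisons tested, the ranges overlapped in these measures except for the share of cells holding Arc in Ir-Rz against Ir-Veh, and all 15 adjusted p-values of the exact permutation tests were 0.933. With each cell thinned to 100 counts, Arc was held by 6.89%, 6.93% and 4.64% of core dentate cells in Ctl-Rz. In Ctl-Veh it was held by 5.04%, 3.35%, 8.16%, 7.09% and 4.34%, so these ranges overlapped. The Ir-Rz shares lay below both of these groups too. Without thinning, the Ir-Rz shares were 7.33% and 7.52%, above the 5.89% of Ctl-Veh 3 and below the other samples.

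**Figure D5:**
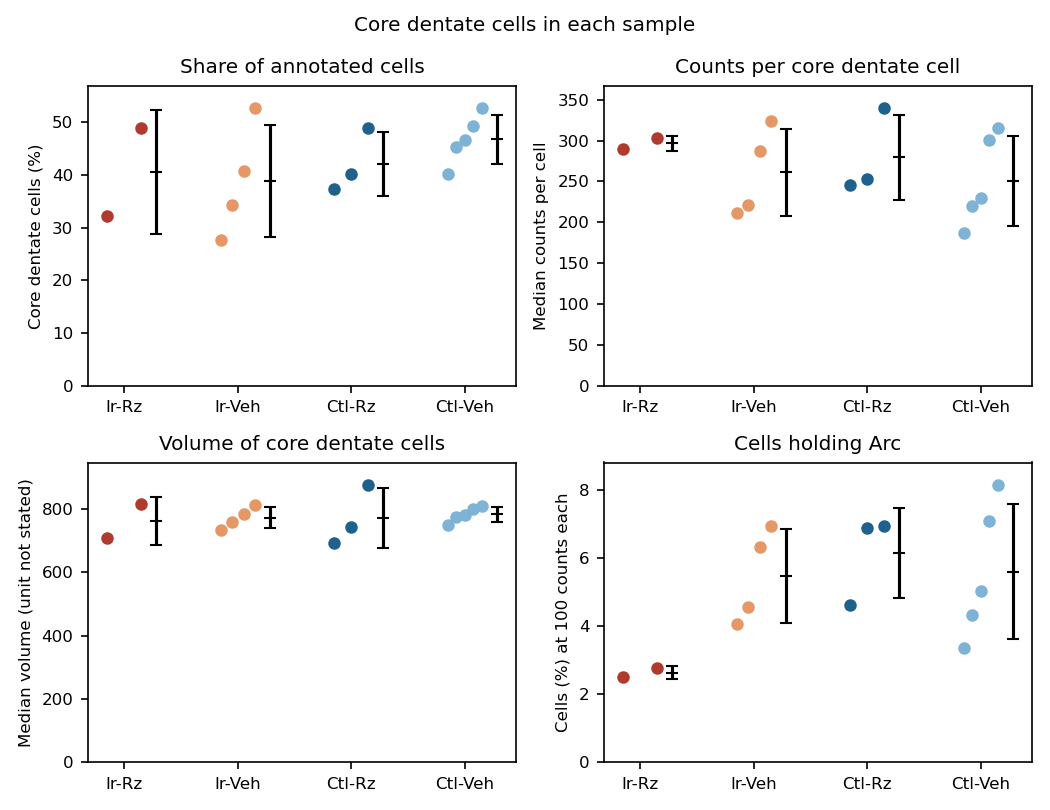
Share of annotated cells, median counts, median volume and share of cells holding Arc (each cell thinned to 100 counts) for core dentate cells, with 1 point per sample and the mean ± SD beside each group. The Ir-Rz samples hold Arc in 2.78% and 2.50% of the thinned cells, below all 12 other samples, which does not hold against Ctl-Veh 3 without thinning.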

How the data were processed

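Per the labels, sagittal mouse hemibrain sections were imaged by MERFISH (MERSCOPE), and cells were segmented with Cellpose. The deposited matrix held whole-number counts per cell and gene, with no normalization by the authors. Class, Leiden cluster, volume and position came from the authors' cell table. Gene panel, software versions and cluster settings are not given in the sources used here. Unused per-sample columns numbered 0.

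Counts of core dentate cells were summed per sample, since cells are not replicates. No cell was removed and no doublet caller was run. Genes were tested with edgeR 4.0.16 (quasi-likelihood, TMM, filterByExpr, 249 of 255 genes kept) in R 4.3.3, with 14 samples in 1 fit on group, and P-values were adjusted by Benjamini-Hochberg and called at 0.05. Log2 ratios between cell groups used CPM plus 10. Differences of group effects used limma 3.58.1, and single measures used exact permutation tests. DESeq2 1.42.0, other scalings, filters, the run as block or random effect and leaving out each sample were alternatives. The self-test on simulated data ran with the same code.

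Run numbers (the assay numbers of the cell table, also in the titles) paired the samples. Deviations from the group mean correlated between run partners at 0.304 to 0.565 in all 7 runs. Replicates differed beyond sampling noise, with a chi-square per degree of freedom of 12.5 to 49.7. Core dentate counts per sample were 43165 to 210249, and intervals cover the spread between samples.

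Genes were named by a rule, namely the 8 given markers, the 10 highest and 10 lowest ratios, the 10 most counted, Bdnf, Arc and Gfap, up to 10 called genes in each direction or the 10 smallest p per comparison, and 2 members per list. Genes outside it (those of non-overlapping groups, spread among cells, run and activity genes) were picked with their values known. The members and lists were chosen with earlier results of these data known. Of 255 symbols, 254 matched RefSeq (GRCm38.p6), used for names and promoters. Some genes that the rule selects are not reported here.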

Additional observations from a re-analysis of the deposited data

Results flagged for a closer look

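The check covered 39 items, which were genes named in the group comparisons and the cell measures, in Ir-Veh and Ctl-Veh only. Of these 78 groups of 4 or 5 samples, 7 held 1 core dentate value whose gap to the nearest was large against the group's range. Chance gives about 1 in 20. A value can be flagged at a small gap where the others are nearly equal, as for Car4. Adgrg7 was 20.8 CPM in Ir-Veh 12, against 85.1 to 90.8 CPM in the other Ir-Veh samples. Calb2 was 246.7 CPM in Ctl-Veh 12, against 141.7 to 171.8. Car12 was 6062 CPM in Ir-Veh 12, against 4652 to 4711, and Car4 was 1823 CPM in Ir-Veh 2, against 1972 to 1983. Creb1 was 325.5 CPM in Ctl-Veh 11, against 178.2 to 215.7. Htr3a was 196.5 CPM in Ir-Veh 9, against 53.2 to 68.1, and 345.3 CPM in Ctl-Veh 12, against 61.6 to 91.1. Of these genes only Car12 and Car4 exceeded 0.2 counts per core dentate cell, and the cause of the values was not tested.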

How the results depend on the processing

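Under every alternative tried (DESeq2, library size alone, deposited totals, no filter, genes at 0.2 or more counts per cell, cells with 100 or more counts, compared groups alone, run as block or random effect, each sample left out) 0 genes were called in the 3 group comparisons and the interaction, and the replicate block changed no call. With the replicate block 12, 9, 16 and 10 genes had an unadjusted p under 0.05, against 8, 6, 5 and 2 in the fit without it. The smallest edgeR adjusted p-values with the block were 0.160, 0.522, 0.558 and 0.907. With the run as random effect those of limma voom were 0.320, 0.141, 0.0805 and 0.570. For run given the group, 56 genes were called when only the 85 genes at 0.2 or more counts were tested. Library size alone moved the median log2 fold change of all genes by 0.19 for Ir-Rz against Ir-Veh and by 0.15 for Ctl-Rz against Ctl-Veh. All reversals were of values that had not passed a test, and their cause was not tested. Values that changed sign are differences of group means for cell measures and log2 fold changes for genes, with Ir-Veh and Ctl-Rz set against Ctl-Veh and Ir-Rz against Ir-Veh, and a difference is that between core dentate and other cells. With cells of 100 or more counts the value was core share in Ir-Rz -0.0139 and Leiden 0 share in Ir-Rz -3.35. Within imaging runs (replicate block) the value was median counts in Ir-Rz -9, median volume in Ir-Veh 19.66, median volume in Ir-Rz 15.98 and Arc share in Ctl-Rz -0.0447. Without thinning the value was Arc share in Ir-Veh 0.914. With the imaging run as replicate block the value was Adarb2 in Ir-Veh 0.075, Gad1 in Ir-Veh -0.023, Csf1 in Ir-Veh -0.0073, Camk2g in Ir-Veh 0.036, Camk2g in Ir-Rz 0.090, Col6a1 in Ir-Rz -0.25, Grm2 in Ctl-Rz -0.0022, Adarb2 in Ctl-Rz -0.21 and Bdnf difference in Ctl-Rz 0.030. With library size alone the value was Grm2 in Ir-Rz 0.087, Csf1 in Ir-Rz 0.0073, Camk2g in Ir-Rz 0.14, Bdnf in Ctl-Rz 0.062, Arc in Ctl-Rz 0.089, Csf1 in Ctl-Rz 0.023 and Camk2g in Ctl-Rz 0.018. With deposited totals the value was Grm2 in Ir-Rz 0.081, Csf1 in Ir-Rz 0.00072, Camk2g in Ir-Rz 0.12, Bdnf in Ctl-Rz 0.075, Arc in Ctl-Rz 0.10, Csf1 in Ctl-Rz 0.036 and Camk2g in Ctl-Rz 0.031. With genes at 0.2 or more counts the value was Grm2 in Ir-Rz 0.064, Camk2g in Ir-Rz 0.11, Bdnf in Ctl-Rz 0.083, Arc in Ctl-Rz 0.062, Csf1 in Ctl-Rz 0.015 and Camk2g in Ctl-Rz 0.017. With the run as a random effect the value was Col6a1 in Ir-Rz -0.048 and Adarb2 in Ctl-Rz -0.090. Leaving out each sample in turn gave these ranges. For Ir-Veh they were median volume -23.98 to 2.53, Arc share -0.675 to 0.527, median counts -10.7 to 26.63, Leiden 0 share -6.55 to 0.0452, Adarb2 -0.60 to 0.094, Csf1 -0.18 to 0.19, Camk2g -0.24 to 0.087 and Bdnf difference -0.15 to 0.045. For Ir-Rz they were core share -6.65 to 10.08, Leiden 0 share -1.88 to 4.72, median volume -63.21 to 43.17, Grm2 -0.65 to 0.41, Csf1 -0.65 to 0.27, Camk2g -0.31 to 0.16 and Col6a1 -0.15 to 0.43. For Ctl-Rz they were median volume -64.44 to 27.6, Leiden 0 share -7.38 to 2.97, median counts -1.45 to 45.55, Arc share -0.00196 to 1.32, Bdnf -0.27 to 0.14, Arc -0.34 to 0.18, Gfap -0.077 to 0.40, Grm2 -0.090 to 0.32, Adarb2 -0.36 to 0.38, Csf1 -0.19 to 0.010, Drd1 -0.036 to 0.20, Bdnf difference -0.16 to 0.074 and Arc difference -0.019 to 0.23. The lowest depth, 43165 counts in Ir-Rz 9, and 2 Ir-Rz samples limit the precision, and only 85 of the 255 genes reached 0.2 counts per core dentate cell.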
